A study of Mus musculus with 8 samples.

Results

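The genes described here were 8 regulators of G protein signalling (RGS), namely Rgs1, Rgs2, Rgs3, Rgs10, Rgs14, Rgs16, Rgs18 and Rgs19, taken as the rows with these symbols among the 19191 gene rows of an RNA-seq count table. They were chosen from the 21 numbered Rgs genes of the table with earlier results of the same comparison known, so their values in that comparison are a description and not independent evidence. The libraries came from regulatory T (Treg) cells, which are CD4 T cells that restrain immune responses and depend on the transcription factor Foxp3. They were sorted from large-intestinal lamina propria of C57BL/6 mice. Of the 4 RNA-seq libraries, 2 were KO (genotype Ahrf/- Foxp3Yfp-Cre) and 2 were WT (genotype Ahrf/+ Foxp3Yfp-Cre). Both genotypes thus carried the Cre recombinase made from the Foxp3 locus, with its YFP reporter, and a floxed allele of Ahr, the gene of the aryl hydrocarbon receptor, a ligand-activated transcription factor. The other allele was null in KO and intact in WT, so by genotype WT Treg cells kept 1 working copy, and cells other than Treg cells had fewer intact copies in KO mice than in WT mice. Effects of Ahr loss in Treg cells and in the surrounding tissue cannot be told apart by this design. Age, sex and the number of animals per library are not given in the labels used here, so every p-value rests on a spread between libraries that may be technical.

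G protein-coupled receptors, among them the chemokine receptors, switch on heterotrimeric G proteins by loading the alpha subunit with GTP. RGS proteins carry a conserved RGS domain that speeds up GTP hydrolysis by the alpha subunit and so shortens the signal. In lymphocytes they are known for setting how strongly and how long cells respond to chemokines. The family is commonly divided by sequence into the R4 group (small proteins, here Rgs1, Rgs2, Rgs3, Rgs16 and Rgs18), the R12 group (Rgs10 and Rgs14), the RZ group (Rgs19) and the R7 group, which had no gene among the 8.

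Libraries held between 26862922 and 62402450 counts over all genes. Levels are given as CPM, a count scaled to 1000000 of the effective library total, which is not divided by transcript length, so levels of different genes are not ranked. Counts over the whole Ahr gene were 536 and 518 CPM in KO and 581 and 539 CPM in WT, a log2 fold change of -0.09 ± 0.09 (standard error). Counts per gene do not show a deleted exon, so the Ahr count is no check of the deletion or of the labels. The 10 Treg markers were all present. Foxp3 was at 250 and 259 CPM in KO and 280 and 252 CPM in WT. Of the 10, 4 were higher in both KO libraries, 0 were lower in both and 6 overlapped between the genotypes. Over all genes tested, 13.5% were higher in both and 13.4% lower in both. The higher sum in KO (9706 and 9163 CPM, against 8798 and 8524 CPM in WT) came mostly from Ctla4, an inhibitory receptor gene, at 3773 and 3620 CPM in KO and 3196 and 3045 CPM in WT. The sum of 8 B cell markers was lower in both KO libraries (21.2 and 17.8 CPM, against 22.6 and 23.6 CPM in WT), with 4 markers lower in both, 1 higher in both and 3 overlapping. Of 6 mast cell markers Kit, a receptor that other cells also make, was at 6.16 and 4.92 CPM in KO and 12.2 and 10.7 CPM in WT (DESeq2 adjusted p = 0.0294), while Fcer1a had 0 counts in all 4 libraries and the others at most 31 counts. Myeloid sums overlapped, at 100.6 and 47.2 CPM in KO and 135.9 and 64.6 CPM in WT, but were lower in KO within each replicate number, as were 8 of the 9 markers. Among 7 epithelial markers the sum overlapped, with 4 markers higher in both KO libraries, 2 lower in both and 1 overlapping. Krt8 (1.01 and 3.86 CPM in KO, 0 and 0.126 CPM in WT, DESeq2 adjusted p = 8.00e-04) and Krt19 (0.554 and 2.44 CPM in KO, 0.149 and 0 CPM in WT, DESeq2 adjusted p = 0.138) were among the higher. The lower were Epcam (12.22 and 13.72 CPM in KO, 14.75 and 14.46 CPM in WT) and Krt18 (1.43 and 1.53 CPM in KO, 2.01 and 2.26 CPM in WT). The part of these markers in the differences of the RGS genes was not tested. Sums of the plasma, platelet, cytotoxic and endothelial lists overlapped between genotypes. Stromal markers stood apart by replicate number, at 82.3 CPM in KO replicate 2 and 69.4 CPM in WT replicate 2, against 10.6 CPM in KO replicate 1 and 14.7 CPM in WT replicate 1. For this reason log2 ratios of KO over WT within each replicate number are given beside the fitted values.

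Rgs1, Rgs2 and Rgs16 were higher in both KO libraries than in both WT libraries, by 1.24, 1.25 and 1.38 times on the mean CPM. Rgs14 and Rgs19 were lower in both KO libraries, by smaller amounts, and Rgs3 and Rgs10 overlapped between the genotypes. Rgs18 was near the limit of detection. Of the 8 genes 7 passed the filter on low counts, and the genotypes did not overlap for 5 of these 7, against 27% of the 14274 genes tested (3 above, against 13.5%, and 2 below, against 13.4%). At a Benjamini-Hochberg adjusted p under 0.05 over all genes and with genotype as the only term, edgeR's quasi-likelihood test called none of the 7 (0 of all genes tested, 0%) and DESeq2 called none of them either (48 of 17996 genes, 0.267%). By unadjusted p alone (under 0.05), edgeR had 3 of the 7 higher and 0 lower, beside 234 higher and 173 lower among the 14274 genes tested. The calls depended on the model. With replicate number as a further term, edgeR and DESeq2 both called Rgs1, Rgs2 and Rgs16 higher, and edgeR called 1.93% of all genes tested higher. The labels do not say that replicate numbers pair the libraries, and such a fit leaves 1 residual degree of freedom. Since the genes were chosen with this comparison known, these counts describe the choice. In a bulk library, a different share of cells that make a transcript and a different amount per cell cannot be told apart.

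**Figure D1:**
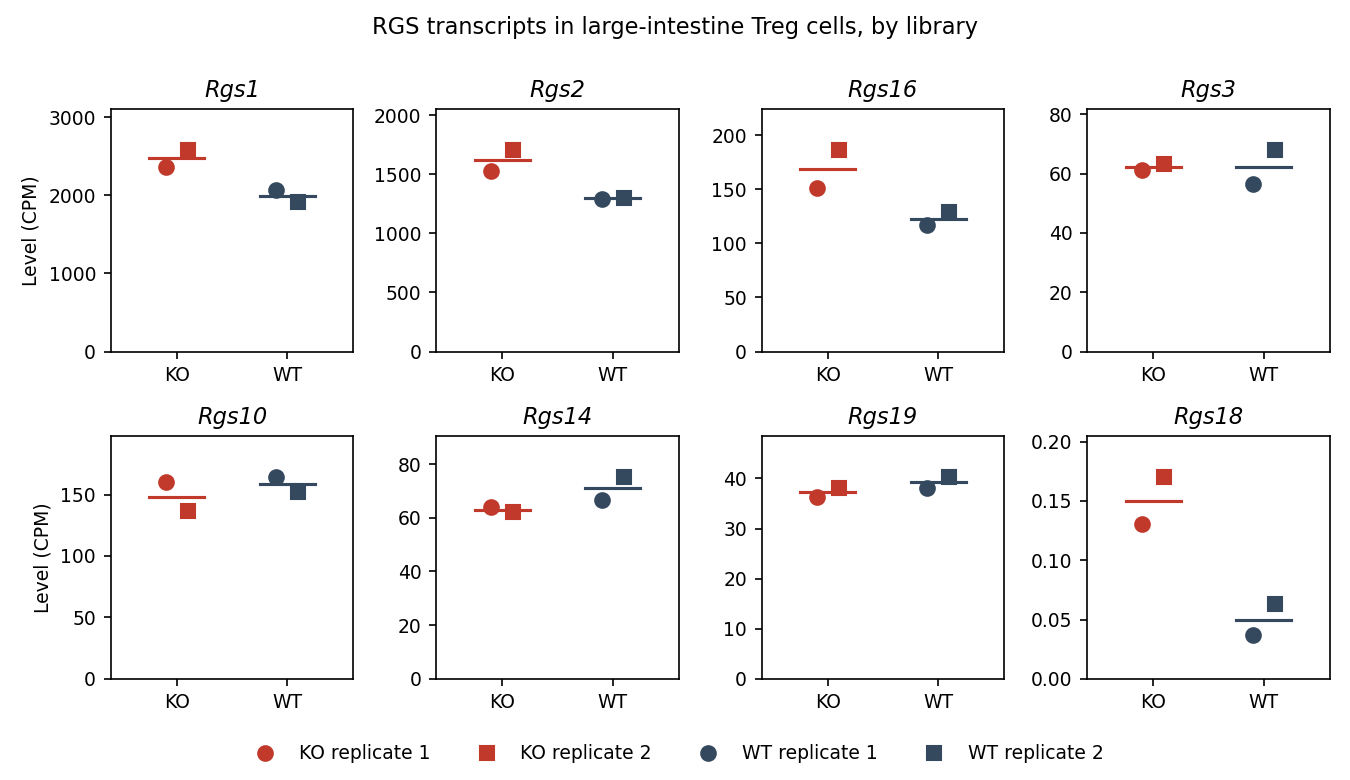
Level of each RGS transcript (CPM, axis from 0) in every library, KO on the left and WT on the right. Circles are replicate 1, squares replicate 2 and bars the mean of 2 libraries. Both KO points lie above both WT points for Rgs1, Rgs2, Rgs16 and Rgs18, the last at under 0.2 CPM.

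Rgs1, which dampens chemokine receptor signalling in lymphocytes and marks tissue-resident T cells, was at 2357 and 2587 CPM in KO replicates 1 and 2 and at 2072 and 1921 CPM in WT replicates 1 and 2. All of these values rest on at least 55644 reads, so counting error is small beside the spread between libraries. The KO libraries lay above the WT libraries, and the separation was wider in replicate 2. Its log2 fold change was 0.31 ± 0.11 (standard error, 95% interval 0.04 to 0.58), with 0.19 within replicate 1 and 0.43 within replicate 2. The transcript alone made up 0.233% and 0.256% of all gene counts in KO and 0.207% and 0.196% in WT.

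Rgs2, which is selective for Gq among alpha subunits and is an immediate early gene of T cell activation, was at 1531 and 1709 CPM in KO and at 1290 and 1301 CPM in WT. The WT libraries were nearly equal, and both KO libraries were higher. This gave a log2 fold change of 0.32 ± 0.10 (95% interval 0.07 to 0.58), with 0.25 within replicate 1 and 0.39 within replicate 2. Rgs16, an activation-induced regulator of Gi and Gq signalling that limits T cell migration towards chemokines, was at 151 and 187 CPM in KO and at 117 and 129 CPM in WT. The KO libraries differed more from each other than the WT libraries did, and the lower of them was still above both WT libraries. Its log2 fold change of 0.46 ± 0.13 (95% interval 0.13 to 0.79) was the highest of the 7 genes, with 0.37 within replicate 1 and 0.54 within replicate 2. The intervals of Rgs1, Rgs2 and Rgs16 overlap, so their sizes are not shown to differ.

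Since Rgs2 and Rgs16 were both higher in KO and Ahr is a DNA-binding factor, their promoter windows are shown. The binding core of Ahr with its partner Arnt is GCGTG, which reads CACGC on the other strand. RefSeq windows of 300 bases, 250 before and 50 after an annotated start (GRCm38.p6), were matched by symbol for 5 of the 8 genes, with 8 windows in all, and Rgs1, Rgs14 and Rgs18 had none in the table used. The core, on either strand, is in capitals. The third sequence belongs to Rgs9, an R7 gene outside the 8, which is shown for comparison because it was lower in KO. In order, the windows are chr1:144004100-144004399 (minus strand), chr1:153740103-153740402 (plus strand) and chr11:109298132-109298431 (minus strand).
Rgs2: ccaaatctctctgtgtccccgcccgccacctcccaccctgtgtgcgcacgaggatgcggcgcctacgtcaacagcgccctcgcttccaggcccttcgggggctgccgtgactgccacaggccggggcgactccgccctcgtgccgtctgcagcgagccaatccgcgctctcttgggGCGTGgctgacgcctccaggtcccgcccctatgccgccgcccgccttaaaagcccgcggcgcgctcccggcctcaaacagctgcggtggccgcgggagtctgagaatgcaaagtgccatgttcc
Rgs16: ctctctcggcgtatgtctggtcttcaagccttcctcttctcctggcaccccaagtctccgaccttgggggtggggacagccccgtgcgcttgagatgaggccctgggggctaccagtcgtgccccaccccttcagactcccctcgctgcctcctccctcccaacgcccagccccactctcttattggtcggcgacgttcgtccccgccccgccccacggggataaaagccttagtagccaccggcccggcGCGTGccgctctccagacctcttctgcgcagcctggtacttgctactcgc
Rgs9: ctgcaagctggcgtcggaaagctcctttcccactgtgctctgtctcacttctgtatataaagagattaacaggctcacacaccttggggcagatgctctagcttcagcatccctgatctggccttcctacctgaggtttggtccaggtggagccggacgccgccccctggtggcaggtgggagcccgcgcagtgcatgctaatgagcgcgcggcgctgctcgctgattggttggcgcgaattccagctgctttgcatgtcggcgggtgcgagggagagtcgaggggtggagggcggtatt
The Rgs2 window held 1 core, starting 74 bases before the annotated start, the Rgs16 window held 1 core that starts on the first transcribed base, and the Rgs9 window held 0. Among the 8 windows of the 5 genes, 4 held the core, against 32.4% of 32851 windows of the same length. The others with a core were a pair of Rgs19 windows that overlap each other, with 2 cores and 1 core. Rgs19 was lower in both KO libraries, so windows with a core came from genes on both sides of the comparison. Both Rgs3 windows, the Rgs10 window and the remaining Rgs19 window had none. The core of the cAMP response element, TGACG or CGTCA, was found in 1 of the 8 windows, that of Rgs2, which held 2 copies that share no base with the Ahr core (20.8% of all windows hold it). These matches describe letters in a short window and are not binding sites.

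Rgs3, whose longer isoforms carry further domains beside the RGS domain, was at 61.2 and 63.3 CPM in KO and at 56.4 and 68.1 CPM in WT. The KO values lay between the WT values. The fitted log2 fold change was 0.00 ± 0.13 (95% interval -0.32 to 0.31), with 0.12 within replicate 1 and -0.11 within replicate 2, so the sign depended on the replicate. Rgs18, best known from platelets and megakaryocytes, had 4 and 9 counts in KO and 1 and 4 counts in WT, and was not tested. Pooled by genotype and scaled to the library totals, 13 against 5 counts gave a ratio of 2.75 with an exact 95% interval from 0.92 to 9.85 that covers counting error only. A difference was therefore not detectable at this depth. The 5 platelet markers found in the table summed to 2.57 and 4.31 CPM in KO and 4.36 and 3.77 CPM in WT.

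Of the 8 genes 4 lie on chromosome 1. Many other numbered Rgs genes lie there too, among them Rgs4, Rgs5, Rgs8, Rgs13, Rgs20 and Rgs21, so this location is not particular to the 8. Rgs2, Rgs1 and Rgs18 share a stretch of 776 kb with Rgs13, a germinal centre B cell gene, and Rgs21, a gene of taste tissue, all on the minus strand (mm9, Rgs2 from 145846468 to Rgs18 at 146622565). No other annotated gene of the table lay in between. Rgs13 had 3 and 6 counts in KO and 6 and 9 counts in WT, and Rgs21 had 0 counts in all 4 libraries, which allows up to 0.0978 and 0.0568 CPM in KO and 0.112 and 0.0471 CPM in WT. Reads in this stretch thus fell almost entirely on Rgs2 and Rgs1, with Rgs13 close to nothing between them. The next gene outward, Uchl5 at 192 kb from Rgs2, a deubiquitinase gene, had a log2 fold change of 0.11 ± 0.19.

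**Figure D2:**
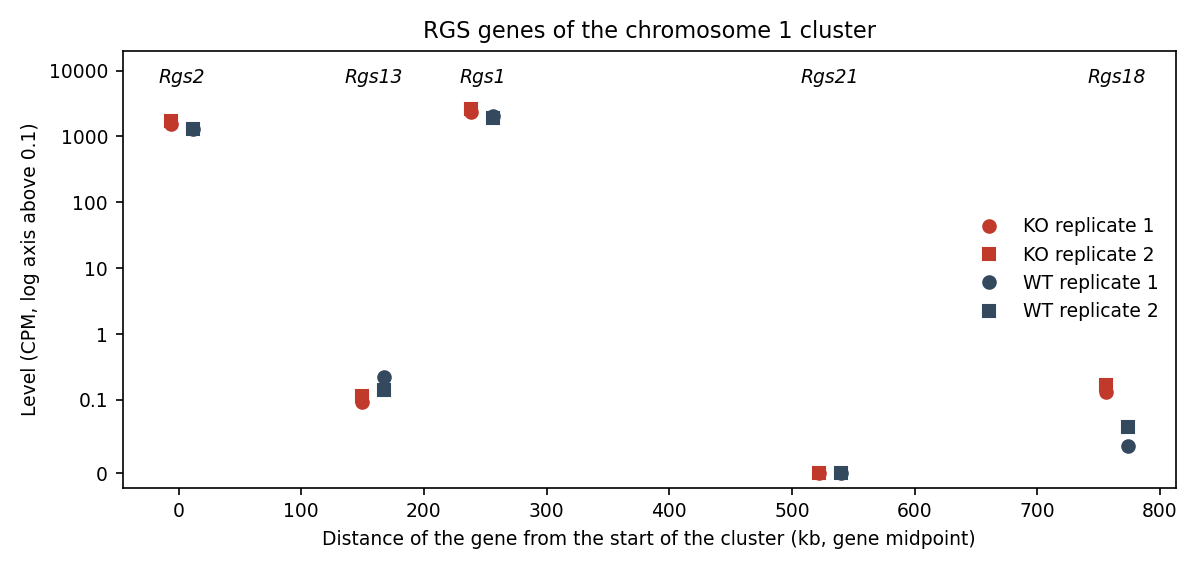
Level (CPM, log axis above 0.1 and linear below) of the 5 RGS genes of the chromosome 1 cluster against their distance from its start (kb), for KO (red) and WT (dark) libraries. Rgs2 and Rgs1 lie between 1290 and 2587 CPM in every library, and Rgs13, Rgs21 and Rgs18 lie near or below 0.2 CPM.

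Rgs16 lies elsewhere on the same chromosome (155587479 to 155592598, plus strand, mm9), next to Rgs8, an R4 gene of neurons. Rgs8 had 6 and 33 counts in KO and 6 and 8 counts in WT and was not tested. The neighbours of Rgs14 and Rgs10 that were tested had 95% intervals that included 0. Lman2, which encodes a cargo lectin and lies 6.95 kb from Rgs14, had 0.10 ± 0.09. It was higher in both KO libraries (165 and 178 CPM, against 156 and 164 CPM in WT), as were 13.5% of all genes tested. Tial1, which encodes an RNA-binding protein and lies 21.0 kb from Rgs10, had -0.03 ± 0.13. Tcea2, an elongation factor gene that ends 0.347 kb from Rgs19 on the opposite strand, had -0.12 ± 0.21. No annotated gene next to one of the 8 overlapped it, but use of strand in counting is not given in the sources used here.

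Rgs10, a short R12 protein that consists of little more than an RGS domain, was at 160 and 136 CPM in KO and at 164 and 152 CPM in WT. KO replicate 1 lay between the WT libraries, so the genotypes overlapped. Its log2 fold change was -0.10 ± 0.11 (95% interval -0.38 to 0.19), with -0.04 within replicate 1 and -0.16 within replicate 2, and was 0.02 without KO replicate 2 (edgeR). Rgs14, which also carries Ras-binding domains and a GoLoco motif that binds inactive Gi alpha subunits, was at 63.9 and 62.2 CPM in KO and at 66.7 and 75.3 CPM in WT. Both KO libraries were lower, and WT replicate 2 was farther from them than WT replicate 1. The fit put its log2 fold change at -0.17 ± 0.11 (95% interval -0.44 to 0.10), with -0.06 within replicate 1 and -0.27 within replicate 2. Without 1 library it was -0.08 (without WT replicate 2) to -0.26 (without WT replicate 1).

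Rgs19, also called GAIP and of the RZ group, was at 36.3 and 38.1 CPM in KO and at 38.1 and 40.3 CPM in WT. KO replicate 2 and WT replicate 1 were almost level, so the separation is marginal. Its log2 fold change of -0.08 ± 0.10 (95% interval -0.33 to 0.18) was -0.07 within replicate 1 and -0.08 within replicate 2, and ran to -0.04 without WT replicate 2 and -0.12 without WT replicate 1. For Rgs10, Rgs14 and Rgs19 the lower ends of these intervals leave out decreases beyond -0.38, -0.44 and -0.33 on the log2 scale. The summed B cell markers were lower in both KO libraries, as Rgs14 and Rgs19 were, and so were the myeloid markers within each replicate number, and their part was not tested.

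**Figure D3:**
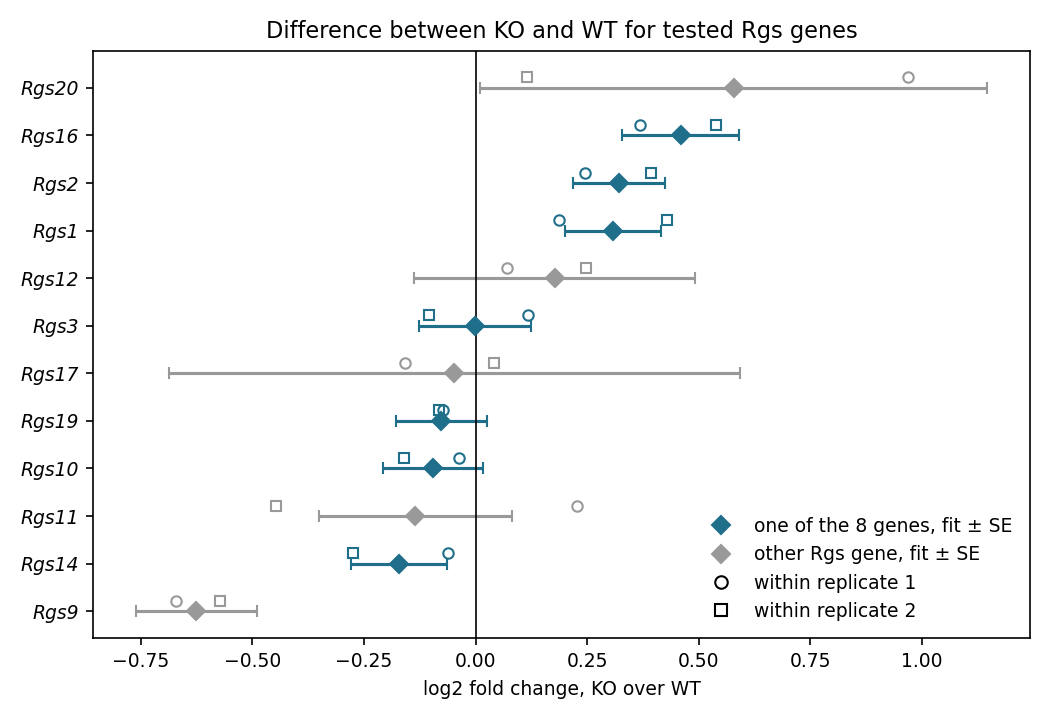
Log2 fold change of KO over WT for Rgs genes that passed the filter on low counts, with the 7 tested genes of the 8 in blue and other Rgs genes in grey. Diamonds are the edgeR fit with its standard error, open circles the ratio within replicate 1 and open squares within replicate 2. Rgs16, Rgs2, Rgs1, Rgs12 and Rgs20 lie above 0 in both replicates, and Rgs9, Rgs10, Rgs14 and Rgs19 lie below 0 in both. Rgs3, Rgs11 and Rgs17 change sign between replicates. Rgs4 and Rgs5, whose standard errors exceed 1, are left out.

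Counts of 2 genes in the same library share that library's scaling, so their ratio does not depend on normalization. The size of such a ratio depends on transcript length and only its difference between libraries is read here. Each of Rgs1, Rgs2 and Rgs16 was set over each of Rgs10, Rgs14 and Rgs19, and all 9 ratios were higher in both KO libraries than in both WT libraries. Both sets of genes were taken from this same comparison and the ratios share genes, so the count of 9 restates that choice and is a description. Rgs1 over Rgs10 was 14.7 and 19.0 in KO and 12.6 and 12.6 in WT. Rgs16 over Rgs14 was 2.36 and 3.00 in KO and 1.75 and 1.71 in WT, which is 1.35 times higher in KO within replicate 1 and 1.76 times within replicate 2. In all 9 ratios the excess of KO was larger in replicate 2 than in replicate 1. Rgs3 over Rgs10 overlapped between the genotypes, at 0.382 and 0.465 in KO and 0.343 and 0.447 in WT. Rgs3 over Rgs14 was 0.957 and 1.02 in KO and 0.845 and 0.905 in WT, so both KO ratios lay above both WT ratios although Rgs3 itself overlapped, and a denominator alone can separate the genotypes in such a ratio.

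**Figure D4:**
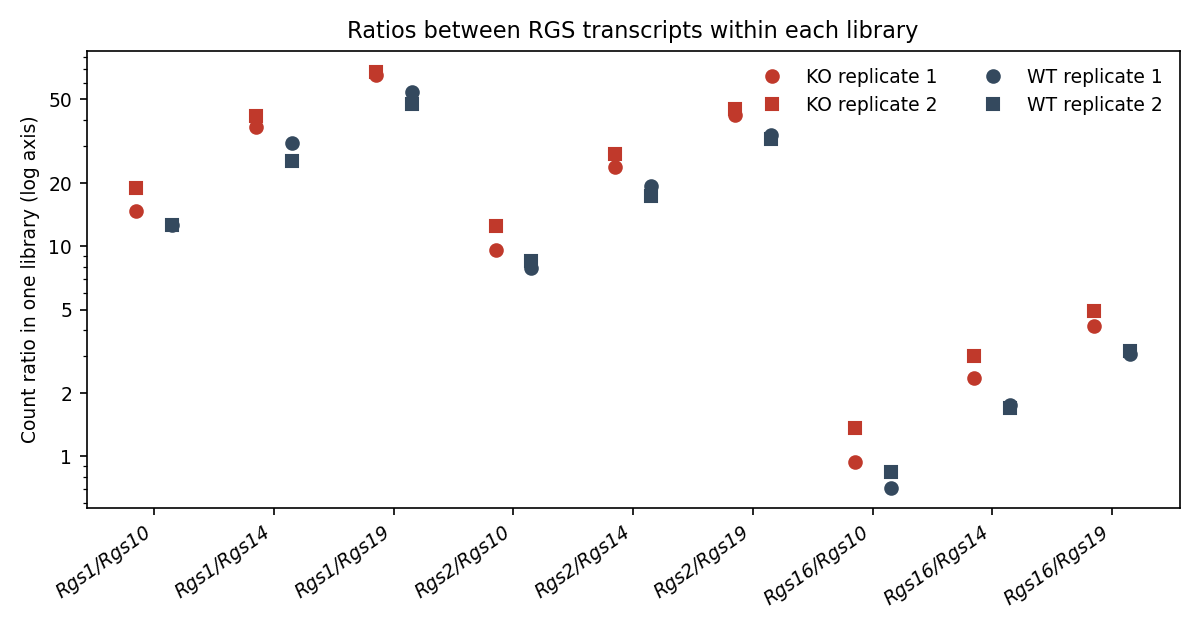
Ratio of the counts of 2 RGS genes within one library (log axis), for KO (red, left of each pair) and WT (dark) libraries, with circles for replicate 1 and squares for replicate 2. In each of the 9 pairs, whose genes were taken from the same comparison, both KO points lie above both WT points.

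Of the 13 numbered Rgs genes outside the 8, 7 were tested. The gene with the lowest p of these was Rgs9, an R7 protein known from photoreceptors and the striatum that acts together with the G protein beta subunit Gnb5. It was at 27.4 and 24.5 CPM in KO and at 43.8 and 36.4 CPM in WT, and both KO libraries were clearly below both WT libraries. For Rgs9 the fitted log2 fold change was -0.63 ± 0.14 (95% interval -0.96 to -0.29), with -0.67 within replicate 1 and -0.57 within replicate 2. Rgs9 was called in the authors' deposited table (adjusted p = 0.0328), which called 66 of its 19191 genes (0.344%). With genotype as the only term it was not called by edgeR (adjusted p = 1.00, at an unadjusted p of 0.00452) or by DESeq2 (adjusted p = 0.136). In that same authors' deposited table, the adjusted p was 0.386 for Rgs1 and 0.616 for Rgs16, and none of the 8 genes was called. The difference in log2 fold change between Rgs9 and the 8 genes was not tested. Within single libraries Rgs1 over Rgs9 was 85.9 and 105.7 in KO and 47.4 and 52.8 in WT.

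The partners of Rgs9 were at low levels. Gnb5 was at 6.42 and 6.57 CPM in KO and 6.78 and 8.67 CPM in WT. Both KO libraries were thus below both WT libraries, as for 13.4% of all genes tested (log2 fold change -0.26 ± 0.18, 95% interval -0.72 to 0.21). Rgs9bp and Rgs7bp encode anchoring proteins of the R7 group. Rgs9bp had 15 and 40 counts in KO and 16 and 54 in WT (log2 fold change -0.21 ± 0.50). Rgs7bp was near the limit of detection, with 2 and 11 counts in KO and 2 and 11 in WT, and was not tested. Rgs11, the other R7 gene that was tested, overlapped between the genotypes at 7.20 and 6.22 CPM in KO and 6.14 and 8.50 CPM in WT.

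The remaining tested Rgs genes did not separate by genotype, other than Rgs20 of the RZ group at under 0.6 CPM in each library. Rgs12, the large R12 protein, was at 5.28 and 8.76 CPM in KO and 5.03 and 7.37 CPM in WT. Rgs17 had at most 21 counts in a library. Rgs5, an R4 gene of pericytes, and its relative Rgs4 followed the replicate number. Rgs5 was at 0.554 and 12.0 CPM in KO and at 0.708 and 7.30 CPM in WT, and Rgs4 had 1 and 82 counts in KO and 4 and 61 counts in WT. Both were higher in replicate 2 of each genotype, as were the summed stromal markers, among which Pdgfrb, a pericyte receptor, was at 0.196 and 2.78 CPM in KO and 0.0372 and 2.14 CPM in WT. The log2 fold changes of Rgs5 and Rgs4 had standard errors of 1.39 each and give no direction. By contrast, replicate 2 differed from replicate 1 by at most 0.31 on the log2 CPM scale in either genotype for each of the 7 tested genes of the 8. The remaining 6 Rgs genes had at most 33 counts in a library and were not tested.

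**Figure D5:**
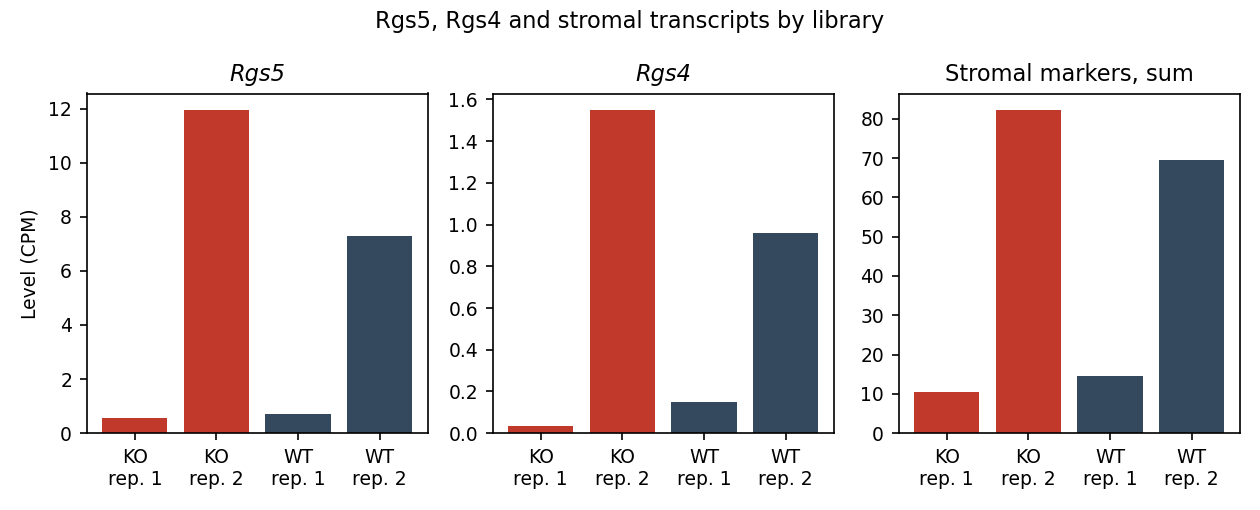
Level (CPM) of Rgs5, of Rgs4 and of 8 stromal markers summed, in each library, KO in red and WT in dark. All 3 are higher in replicate 2 of both genotypes (82.3 and 69.4 CPM for the stromal sum) than in replicate 1.

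The wider pathway was followed through 8 lists of 159 symbols, of which 155 were found and 135 tested. They held G protein subunits, receptors, effectors, cAMP signalling genes, other Rgs genes, other proteins with an RGS-like domain and further modulators. Of the 135 genes 73 were higher and 62 lower, with a median log2 fold change of 0.02, beside 0.01 for all genes tested. EdgeR called 0 of the 135. By its unadjusted p under 0.05, 6 were higher and 5 lower, beside 234 higher and 173 lower among the 14274 genes tested. DESeq2 called 1 of the 135 higher (background 0.167%) and 2 lower (background 0.1%). These 3 were receptors. Ccr3, an eotaxin receptor, was at 52.5 and 48.5 CPM in KO and 30.5 and 34.4 CPM in WT (log2 fold change 0.64 ± 0.12, DESeq2 adjusted p = 0.0221). Gpr15, a receptor for homing of T cells to the colon, was at 55.1 and 59.7 CPM in KO and 118 and 120 CPM in WT (-1.05 ± 0.10, DESeq2 adjusted p = 9.48e-13). Lpar6, a receptor for lysophosphatidic acid, was at 62.5 and 57.6 CPM in KO and 86.2 and 91.5 CPM in WT (-0.57 ± 0.10, DESeq2 adjusted p = 0.0118), and its annotation lies inside Rb1 on the opposite strand, so its reads may be shared. Without any single library DESeq2 kept the call of Gpr15 (adjusted p at most 5.02e-04) and lost those of Lpar6 (at least 0.396) and Ccr3 (at least 0.499). The authors' deposited table called Gpr15 (adjusted p = 8.24e-08) and Lpar6 (0.0121) but not Ccr3 (0.538).

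Genes of G protein subunits showed no call with genotype as the only term. Of 13 tested alpha subunit genes 8 were higher and 5 lower, with a median of 0.01. Gnai2, the main Gi alpha subunit gene of lymphocytes, was at 370 and 401 CPM in KO and 349 and 379 CPM in WT (0.08 ± 0.09), and Gnaq, the Gq subunit gene, was at 41.5 and 29.0 CPM in KO and 40.7 and 28.2 CPM in WT (0.04 ± 0.24). The lowest p among alpha subunits was that of Gna15, a Gq family gene of blood cells, at 64.5 and 57.2 CPM in KO and 53.5 and 53.2 CPM in WT (0.19 ± 0.11), followed by Gna11 (0.17 ± 0.11) and Gna12 (-0.13 ± 0.10). Of 14 beta and gamma subunit genes 9 were higher and 5 lower. Gngt2 had the lowest p there, at 11.4 and 8.80 CPM in KO and 13.1 and 13.7 CPM in WT (-0.41 ± 0.16, edgeR adjusted p = 1.00).

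Other proteins with an RGS-like domain were more often lower, in 10 of 14 cases, with a median of -0.08 beside 0.01 for all genes tested and with no call in the same fits. Over all genes tested, 52% had a log2 fold change above 0. Snx13, a sorting nexin, had -0.25 ± 0.12, and Axin2, a feedback inhibitor of Wnt signalling and the neighbour of Rgs9 at 275 kb, had -0.21 ± 0.10. Further modulators, a list with arrestins and GoLoco proteins, were lower in 7 of 8 cases (median -0.08), with Ric8, a chaperone of alpha subunits, at -0.20 ± 0.11. Of the GoLoco protein genes Gpsm1, Gpsm2 and Gpsm3, Gpsm1 had -0.13 ± 0.12 and Gpsm2, which overlapped between the genotypes, had 0.15 ± 0.23. Gpsm3, counted as lower, was level (-0.0007 ± 0.10). Effectors of alpha and beta-gamma subunits had 7 higher and 8 lower. Adcy3, an adenylyl cyclase, had -0.22 ± 0.11 and Plcb2, the phospholipase C of blood cells, had -0.16 ± 0.09. Of the 50 receptors 31 were higher and 19 lower (median 0.05). Of 13 cAMP signalling genes 9 were higher and 4 lower (median 0.03), led by the phosphodiesterase genes Pde3b (0.27 ± 0.12) and Pde4b (0.21 ± 0.10). With genotype as the only term, edgeR and DESeq2 called none of these genes apart from the 3 receptors named above that DESeq2 called.

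Rgs16 had the largest difference of the 7 tested genes, and the genes with the most similar profile were sought over the 4 libraries by the Euclidean distance of log2 CPM centred on each gene's mean. The nearest were Fabp5, a fatty acid-binding protein gene (distance 0.0514), Kifap3, a kinesin-associated protein gene (0.0521), and Tssk6, a kinase gene of testis (0.0648). Fabp5 was at 22.2 and 28.8 CPM in KO and 17.4 and 19.6 CPM in WT. Rgs2 came at rank 75 (0.192) and Rgs1 at rank 246 (0.258) of the other tested genes, and the remaining 4 tested genes of the 8 at ranks from 3920 to 9817. With 4 libraries such a likeness is only a description, and the choice of Rgs16 used the same comparison.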

How the data were processed

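The analysis used the 4 RNA-seq libraries. The 4 samples of ATAC-seq are not used here. Per the labels' protocols, total RNA was depleted of ribosomal RNA and read as 50 bp single-end reads. The deposited values were counts per gene, whole numbers without normalization, with an adjusted p-value per gene that the authors deposited without naming its comparison, read here as KO against WT. The tools TopHat2 and DESeq and the build mm9 are named in the submitters' processing notes. How reads were counted, on which annotation and whether by strand, is not given in the sources used here.

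Main test: edgeR 4.0.16 (R 4.3.3), quasi-likelihood F-test across all genes, genotype as the only term, filterByExpr (14274 genes tested, 4917 not), TMM, Benjamini-Hochberg adjusted p under 0.05. Fold changes are KO over WT with standard errors from the fit. Ratios within a replicate number used log2 CPM with a prior count of 2. A count of 0 was read as allowing up to 3 counts. The interval of Rgs18 and the floors cover counting error only, whereas intervals of fold changes come from the edgeR fit and include the spread between libraries. DESeq2 1.42.0 and limma 3.58.1 (voom) were alternatives, beside other scalings, filters, a replicate block and leaving out each library. Scripts were tested on simulated data.

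The 8 genes and all lists were chosen with earlier results of these data known. Named were the 8 genes, Ahr, the annotated neighbours, called pathway genes and up to 3 genes of lowest p per list, and the 3 nearest profiles of Rgs16. Uncalled genes named for their role (Gnb5, Rgs9bp, Rgs7bp, Rgs4, Rgs5, Rgs8, Rgs12, Rgs13, Rgs17, Rgs21, Gnai2, Gnaq, Gpsm2, Gpsm3, Pdgfrb) and single markers (Foxp3, Ctla4, Kit, Fcer1a, Krt8, Krt19, Epcam, Krt18) were chosen after their values were seen. Some genes that the rule takes are not reported here.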

Additional observations from a re-analysis of the deposited data

How the results depend on the processing

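Over 16 alternatives the log2 fold changes of Rgs1 (0.24 to 0.37), Rgs2 (0.24 to 0.39) and Rgs16 (0.30 to 0.60) stayed above 0 and those of Rgs14 (-0.26 to -0.08), Rgs19 (-0.12 to -0.04) and Rgs9 (-0.76 to -0.49) below 0. Rgs10 kept its sign in 14 of 16 and Rgs3 in 10. The main edgeR count of 0 calls, with 0 of the 8 genes and 0 pathway genes, was 36 higher and 16 lower without a filter (0 of the 8, 1 pathway gene lower), 30 higher and 18 lower with DESeq2 (0 of the 8, pathway genes 1 higher and 2 lower), and 0 with other scalings, a stricter filter, limma-voom or an adjusted p under 0.1. Fits without 1 library, edgeR or DESeq2, called 0 to 20 genes higher (edgeR 1 at most, DESeq2 2, 9, 13 and 20) and 0 to 9 lower, 0 of the 8 genes, and pathway genes 0 higher and 0 to 1 lower. Such fits assume that the lone library of a genotype varies as the others do. The DESeq2 fits without 1 library were added after seeing the data.

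The labels do not say that replicate numbers pair the libraries, yet same-numbered libraries deviated together (correlation 0.641 across 14274 genes). With the replicate block edgeR called 275 of 14274 genes higher (1.93%) and 183 lower (1.28%), or 3.21% in either direction. Among them were 3 of the 8 genes, all higher, Rgs16 (adjusted p = 1.61e-05), Rgs2 (0.00319) and Rgs1 (0.00781). Of the 135 pathway genes 7 were called higher and 8 lower, Rgs9 among the latter (7.56e-06). DESeq2 with the replicate block called 91 higher and 48 lower over all genes, 3 of the 8 genes higher, and pathway genes 5 higher and 3 lower. The number of genes that received an adjusted p in that fit is not reported here, so these counts carry no share. The block leaves 1 residual degree of freedom, and the choice of genes used this comparison. Depth limits Rgs18 and the untested Rgs genes, which had at most 33 counts in a library.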
